A study of Rattus norvegicus with 38 samples.

Results

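The genes described here are 34 genes of the unfolded protein response, the program by which a cell adjusts the folding capacity of its endoplasmic reticulum (ER). They were chosen by symbol and fall into 4 roles: 15 chaperones and folding enzymes, 7 genes of ER-associated degradation, 4 genes for the stress sensors and the transcription factor Xbp1, and 8 genes of the arm that runs through Atf4 and Ddit3. All 34 were found among the 31038 genes of the count table, and 33 passed the filter on low counts. Derl3, a degradation gene, had at most 1 read pair per library and was not tested. RNA was sequenced from 38 livers of Sprague-Dawley rats, an outbred laboratory strain, excised on day 28. The livers given lipopolysaccharide (LPS), the inflammatory outer membrane component of gram-negative bacteria, by injection into the abdominal cavity formed 4 groups, which were LPS (no extract, n = 5), LPS_EF (with EF, n = 5), LPS_EF_PF (with EF and PF, n = 4) and LPS_EF_RD (with EF and RD, n = 5). The livers without LPS formed the matching groups EF (n = 5), EF_PF (n = 5), EF_RD (n = 4) and control (neither LPS nor extract, n = 5). EF, PF and RD are extracts known only by these letters; they were given into the stomach at 2.5 g/kg for EF, 2.5 g/kg for PF and 200 mg/kg for RD, and PF and RD were always given on top of EF. No source used here gives the dose of LPS, how long before collection it was injected, or the age and sex of the rats. The labels put all libraries in 1 batch.

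Proteins that enter the secretory pathway fold in the ER, where Hspa5 (BiP) binds unfolded chains, protein disulfide isomerases set their disulfide bonds and the lectin chaperones calreticulin and calnexin hold glycoproteins. When unfolded chains build up, the sensor Ern1 (IRE1) splices the Xbp1 transcript, Atf6 is cleaved to a transcription factor, and Eif2ak3 (PERK) phosphorylates the initiation factor eIF2alpha, which raises translation of Atf4. Spliced Xbp1 and cleaved Atf6 are known to act on chaperone and degradation genes, and Atf4 on Ddit3 (CHOP), Trib3, Asns, Chac1 and Sesn2. The Atf4 arm also answers to other eIF2alpha kinases, such as the one that senses a lack of amino acids. Hepatocytes secrete most plasma proteins and carry a large ER. The table counts read pairs per gene, so spliced and unspliced Xbp1 are not told apart, and neither the amount nor the phosphorylation of any protein was measured.

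The libraries held 19716622 to 35835012 counted read pairs. The samples carry the cell type label hepatocyte but were taken from liver tissue; all 12 hepatocyte markers were detected in every group, and no step that separates cells is described, so these are whole-tissue values in which fewer cells of a type and less RNA per cell cannot be told apart. The summed level of 10 neutrophil and monocyte markers was 32.0 to 207 CPM (counts relative to the scaled size of each library) in the 19 livers after LPS and 5.52 to 66.0 CPM in the 19 without. Replicate 7 of LPS_EF (32.0 CPM) and replicate 6 of LPS_EF_RD (39.6 CPM) were the lowest of the LPS libraries, and the other 17 had 104.8 CPM or more. Exocrine pancreas markers summed to 3647 CPM in control 5 and 2072 CPM in LPS 3, and skeletal muscle markers to 4287 CPM in EF_RD 1 and 417 CPM in LPS 3. B and plasma cell markers, of which 9 of 10 were in the table, summed to 6.37 to 29.6 CPM after LPS and 1.81 to 9.63 CPM without, with none of the 9 at 0 over a whole group. Libraries are named below by group and replicate number. EF_RD 2 and EF_RD 4 were closer to each other than any other pair of 1 group (chi-square per degree of freedom 5.69 over genes, against 23.8 or more). They differed by more than sampling noise and were counted as 2 livers, as labelled. The counts cannot show whether they come from 2 animals or from 1. If from 1, EF_RD has fewer livers than stated and its spread is understated. Leaving out EF_RD 2 or EF_RD 4 gave 14 members called in either case in LPS_EF_RD against EF_RD (16 with both), with 14 chaperones higher each time as with both; it gave 1 and 0 members in EF_RD against control (2 with both) and 1 and 0 in EF_RD against EF (1 with both).

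Between genes, levels were compared in TPM, the deposited unit that divides counts by gene length. In control livers the 34 genes covered a wide range, from calreticulin (Calr, 1185 ± 158 TPM, SD, n = 5) to Derl3 (0.0028 TPM). The next most abundant were P4hb, a protein disulfide isomerase (937 ± 107 TPM), Hspa5 (739 ± 97.5 TPM), Pdia3, a disulfide isomerase that works on glycoproteins (604 ± 52.4 TPM), and Hsp90b1, the Hsp90 of the ER (579 ± 74.4 TPM). The ranges of these neighbours overlapped, and the first clear step was between Hsp90b1 and Pdia6 (398 ± 38.9 TPM), whose ranges did not. Xbp1 stood seventh at 363 ± 153 TPM. The sensors were low, with 22.8 TPM for Atf6, 11.7 TPM for Ern1 and 8.55 TPM for Eif2ak3. Of the Atf4 arm, Atf4 itself had 152 ± 29.9 TPM, whereas Trib3 (8.07 TPM), Ddit3 (5.95 TPM), Asns (2.57 TPM), Atf3 (1.84 TPM) and Chac1 (1.77 TPM) were near the bottom of the list. Summed over genes, the mean TPM of the 15 chaperones was 8762 in LPS, 7779 in LPS_EF, 8071 in LPS_EF_PF and 7516 in LPS_EF_RD, against 5669 in EF, 4881 in EF_PF, 4494 in EF_RD and 5692 in control. The same sum over the 8 genes of the Atf4 arm was 168 in LPS, 184 in LPS_EF, 178.5 in LPS_EF_PF and 185 in LPS_EF_RD, against 215.5 in EF, 195 in EF_PF, 224 in EF_RD and 207 in control. Atf4 alone made up 152 of the 207 TPM in control, so this sum mostly follows Atf4 and not the arm.

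Promoters were searched for the sites known for these transcription factors, in the RefSeq windows of the assembly GRCr8 that run from 250 bases before to 50 bases after each start; 27 of the 34 genes had a window. The ER stress response element (ERSE), the 19-base site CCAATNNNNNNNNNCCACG known to be bound by Atf6 with NF-Y and by Xbp1, was found on either strand in 22 of 33469 windows (0.0657%), and those 22 included 6 of the 12 chaperone windows (Hspa5, Hsp90b1, Calr, Canx, Dnajc3 and Creld2), Derl3 and Xbp1. The shorter form ERSE-II, ATTGGNCCACG, was in 17 windows (0.0508%), among them Dnajb11, Hyou1 and Herpud1. The core of the unfolded protein response element, TGACGTGG, was in 199 windows (0.595%) and, of these genes, in Hyou1, where it overlaps an ERSE-II. The C/EBP-ATF composite site known to be bound by Atf4, here TGATGNAA, was in 1332 windows (3.98%), among them Trib3, Chac1 and Herpud1. No window of the Atf4 arm held an ERSE or ERSE-II, and no chaperone window held the composite site. At the low shares given, finding none in 7 arm windows or 12 chaperone windows does not set the gene groups apart. A match describes letters in a window and does not show binding. The stretches below, with GRCr8 positions, show Hspa5 beside Hsp90b1, Creld2 and Hyou1, which were called higher in all 4 LPS comparisons, then Herpud1 and Xbp1, which carry such sites but were lower in LPS than in control livers, then a pair from the Atf4 arm; each is written 5′ to 3′ along the gene with the matched site in capitals, so a site on the other strand appears as its reverse complement.
Hspa5, chr3:38452943-38453015, plus strand: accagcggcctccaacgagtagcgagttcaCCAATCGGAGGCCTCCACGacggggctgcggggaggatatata
Hsp90b1, chr7:23012317-23012499, minus strand: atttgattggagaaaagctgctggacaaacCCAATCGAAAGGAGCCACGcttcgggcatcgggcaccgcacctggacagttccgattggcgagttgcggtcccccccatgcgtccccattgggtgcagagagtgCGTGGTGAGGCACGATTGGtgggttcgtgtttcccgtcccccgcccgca
Creld2, chr7:121789209-121789287, plus strand: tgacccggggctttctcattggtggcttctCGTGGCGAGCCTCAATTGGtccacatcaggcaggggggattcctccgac
Hyou1, chr8:53602661-53602834, plus strand: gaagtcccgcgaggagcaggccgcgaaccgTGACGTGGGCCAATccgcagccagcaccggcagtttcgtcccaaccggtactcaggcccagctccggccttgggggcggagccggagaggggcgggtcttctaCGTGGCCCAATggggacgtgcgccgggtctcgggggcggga
Herpud1, chr19:10614791-10614921, minus strand: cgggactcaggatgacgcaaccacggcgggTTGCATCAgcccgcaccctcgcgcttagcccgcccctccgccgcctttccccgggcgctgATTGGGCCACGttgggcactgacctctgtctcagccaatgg
Xbp1, chr14:84604528-84604606, plus strand: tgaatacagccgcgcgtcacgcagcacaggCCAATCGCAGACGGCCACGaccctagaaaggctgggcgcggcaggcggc
Trib3, chr3:161275534-161275584, minus strand: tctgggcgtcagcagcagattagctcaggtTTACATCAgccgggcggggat
Chac1, chr3:126795934-126796001, plus strand: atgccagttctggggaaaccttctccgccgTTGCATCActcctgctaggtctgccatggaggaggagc

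After LPS, most ER chaperones were higher, with or without the extracts. In the LPS group 12 of 15 chaperones and folding enzymes rose relative to control and 1 fell, and over the 33 tested members 13 were higher and 9 lower, where 18.6% of all 14786 tested genes were called higher and 18.1% lower. Here and below a call means an adjusted p under 0.05 in edgeR's quasi-likelihood test, adjusted over all tested genes by the Benjamini-Hochberg method. Between LPS_EF and EF 8 chaperones were higher and none lower (members: 9 higher and 4 lower; all genes: 14.6% and 14.5%). Between LPS_EF_PF and EF_PF 12 chaperones were higher and none lower (members: 14 and 4; all genes: 19.2% and 17.3%). Between LPS_EF_RD and EF_RD 14 chaperones were higher and none lower (members: 16 and 0; all genes: 12.8% and 10.7%). These comparisons share no library. The median log2 fold change of the chaperones was 0.51, 0.36, 0.51 and 0.74 in the order given, against medians of 0.00, −0.02, −0.02 and −0.02 over all genes. In all 4 comparisons 7 chaperones were called higher, 12 were in at least 3, and 14 of 15 had a positive fold change in all 4. The chaperones took a median of 1.04% of all counts in LPS livers, 1.03% in LPS_EF, 0.963% in LPS_EF_PF and 0.968% in LPS_EF_RD, against 0.691% in EF, 0.609% in EF_PF, 0.544% in EF_RD and 0.681% in control.

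**Figure D1:**
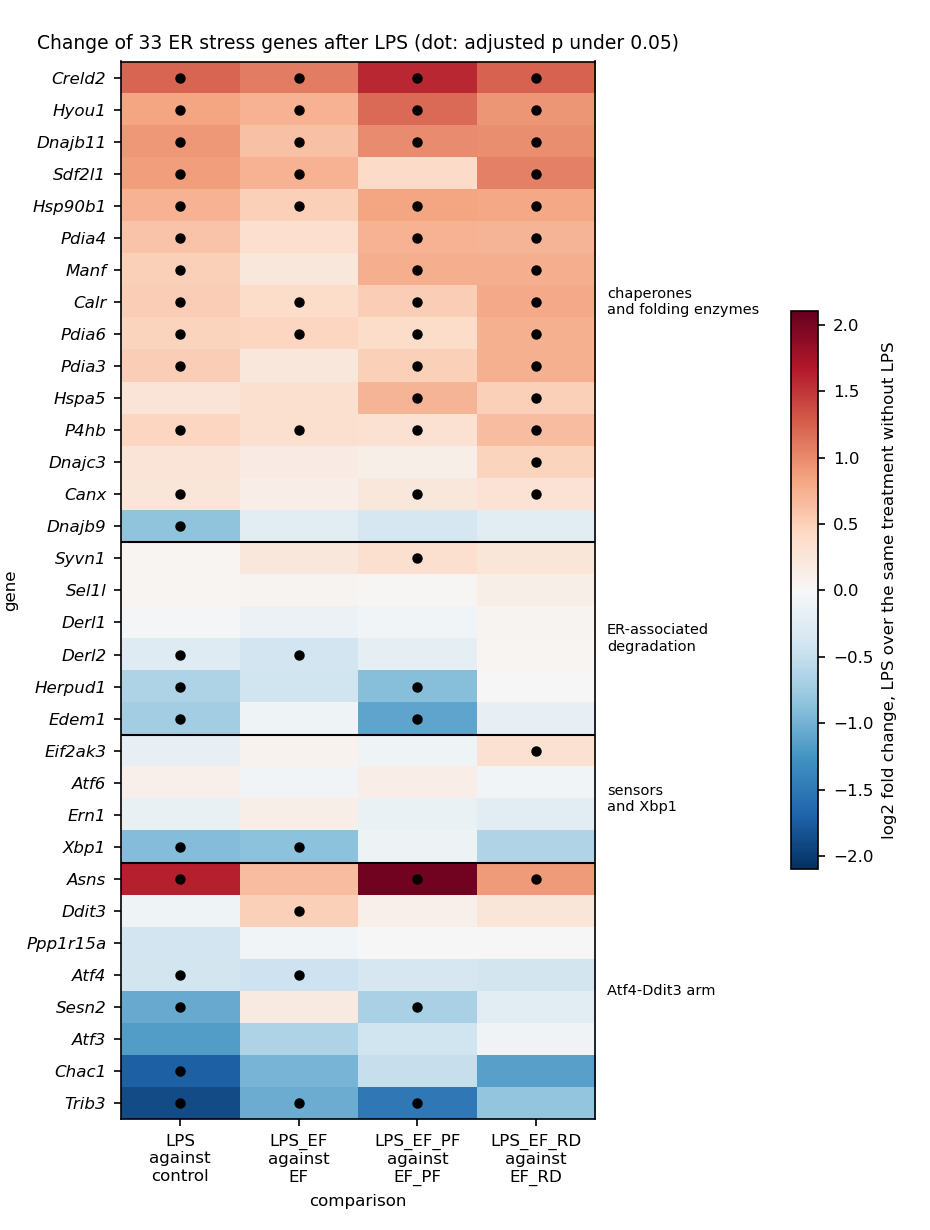
Log2 fold change of 33 genes (rows, grouped by role and ordered by their mean change) in 4 comparisons of livers after LPS with livers of the same extract treatment without LPS (columns); red is higher and blue lower after LPS, and a dot marks an adjusted p under 0.05. All chaperones but Dnajb9 are red in every column, while in the Atf4-Ddit3 arm Asns is red in every column and Trib3, Chac1, Atf3, Atf4 and Ppp1r15a are blue or near 0.

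Creld2, a cysteine-rich ER protein that is known to be induced and secreted under ER stress (rn6 chromosome 7, 129812746 to 129819641, plus strand), had the largest change of the chaperones in each comparison. Its level was 107, 66.3, 73.9, 60.8 and 65.7 CPM in LPS livers, against 41.2, 36.1, 25.7, 32.3 and 24.7 CPM in control livers. All 5 LPS livers were above all 5 control livers, and LPS 1 stood above the rest (log2 fold change 1.22 ± 0.26 (SE), adjusted p = 0.000419). LPS_EF livers had 84.5, 46.9, 65.2, 94.1 and 26.5 CPM of Creld2, against 31.8, 22.4, 26.1, 26.5 and 44.2 CPM in EF livers (1.07 ± 0.26 (SE), adjusted p = 0.00215). Here the groups overlapped through LPS_EF 7, the lowest of its group and also, among the libraries after LPS, the lowest in neutrophil and monocyte markers. LPS_EF_PF livers had 81.9, 73.3, 56.3 and 48.5 CPM of Creld2, against 17.9, 22.5, 25.9, 22.9 and 19.9 CPM in EF_PF livers (1.58 ± 0.27 (SE), adjusted p = 4.21e-05), with no overlap. In LPS_EF_RD livers it had 60.7, 40.3, 67.3, 28.9 and 63.7 CPM, against 29.9, 17.7, 22.0 and 18.6 CPM in EF_RD livers (1.24 ± 0.28 (SE), adjusted p = 0.00187), where LPS_EF_RD 6 was lower than EF_RD 1. Its ERSE, in the stretch above, lies on the strand opposite to the gene.

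Dnajb11, a J-domain co-chaperone that hands unfolded chains to Hspa5 (rn6 chromosome 11, 81741342 to 81757806, minus strand), had 257, 165, 168, 162 and 170 CPM in LPS livers, against 123, 98.3, 75.1, 98.5 and 94.8 CPM in control livers (0.91 ± 0.18 (SE), adjusted p = 0.000226). Every LPS liver was above every control liver. Its log2 fold change was 0.62 ± 0.18 in LPS_EF against EF, 0.98 ± 0.19 in LPS_EF_PF against EF_PF and 0.97 ± 0.19 in LPS_EF_RD against EF_RD, and each was called. Sdf2l1, a partner of Dnajb11 in the ER (rn6 chromosome 11, 88122271 to 88124513, plus strand), had 85.2, 40.5, 54.5, 40.4 and 40.7 CPM in LPS livers, against 32.4, 32.7, 22.2, 29.3 and 26.0 CPM in control livers (0.87 ± 0.23 (SE), adjusted p = 0.00310). The groups did not overlap, and LPS 1 was again the highest. It rose by 0.74 ± 0.23 in LPS_EF and by 1.05 ± 0.25 in LPS_EF_RD on the log2 scale, and its change in LPS_EF_PF was 0.41 ± 0.24 (adjusted p = 0.179). Hyou1, the ER member of the Hsp110 family that exchanges the nucleotide of Hspa5 (rn6 chromosome 8, 48699796 to 48711912, plus strand), came next in size and was added after its values were seen. It had 445, 352, 363, 345 and 313 CPM in LPS livers, against 219, 241, 179.6, 225 and 166 CPM in control livers (0.82 ± 0.18 (SE), adjusted p = 0.000527). All LPS values were above all control values. Hyou1 rose in the other comparisons too, by 0.73 ± 0.18 in LPS_EF, 1.19 ± 0.19 in LPS_EF_PF and 0.93 ± 0.19 in LPS_EF_RD.

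Hsp90b1 (rn6 chromosome 7, 27226570 to 27240533, minus strand), which folds a restricted set of secreted and membrane proteins, had 1762, 1327, 1524, 1332 and 1423 CPM in LPS livers, against 1069, 963, 821, 819.8 and 788 CPM in control livers (0.72 ± 0.14 (SE), adjusted p = 0.000178). The lowest LPS liver was above the highest control liver. With EF, Hsp90b1 had 1531, 1265, 1487, 1667 and 857 CPM in LPS_EF livers, against 1091, 948, 926, 854 and 986 CPM in EF livers (0.50 ± 0.14 (SE), adjusted p = 0.00705). LPS_EF 7 lay inside the EF range and the other 4 were above it. With EF and PF it had 1597, 1374, 1219 and 1240 CPM in LPS_EF_PF livers, against 658, 818, 900.4, 828.7 and 614 CPM in EF_PF livers (0.83 ± 0.15 (SE), adjusted p = 5.85e-05). In LPS_EF_RD livers it had 1397, 1024, 1420, 1071 and 1261 CPM, against 837, 651, 682 and 631 CPM in EF_RD livers (0.82 ± 0.15 (SE), adjusted p = 0.000344). Neither of the last 2 pairs of groups overlapped.

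Hspa5 (rn6 chromosome 3, 13838304 to 13842763, plus strand), which binds the sensors and keeps them inactive until unfolded chains draw it away, differed less. It had 1463, 1222, 1265, 1214 and 1106 CPM in LPS livers, against 1192, 1140, 928, 1055 and 889 CPM in control livers, and its log2 fold change of 0.27 ± 0.14 was not called (adjusted p = 0.125). The groups overlapped, since LPS 5 was below control 3 and control 4. In LPS_EF livers it had 1459, 1098, 1389, 1737 and 744 CPM, against 983, 898, 1106, 956 and 1155 CPM in EF livers (0.33 ± 0.14 (SE), adjusted p = 0.0650). LPS_EF held both the highest and the lowest value of the whole comparison. In LPS_EF_PF livers it had 1368, 1205, 1138 and 1171 CPM, against 667, 764, 838, 774 and 695 CPM in EF_PF livers, a rise of 0.71 ± 0.15 (SE), adjusted p = 0.000312. In LPS_EF_RD livers it had 1330, 1006, 1110, 988 and 1241 CPM, against 904, 777, 763 and 766 CPM in EF_RD livers, a rise of 0.50 ± 0.15 (SE), adjusted p = 0.0137. In both, every liver after LPS was above every liver without.

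**Figure D2:**
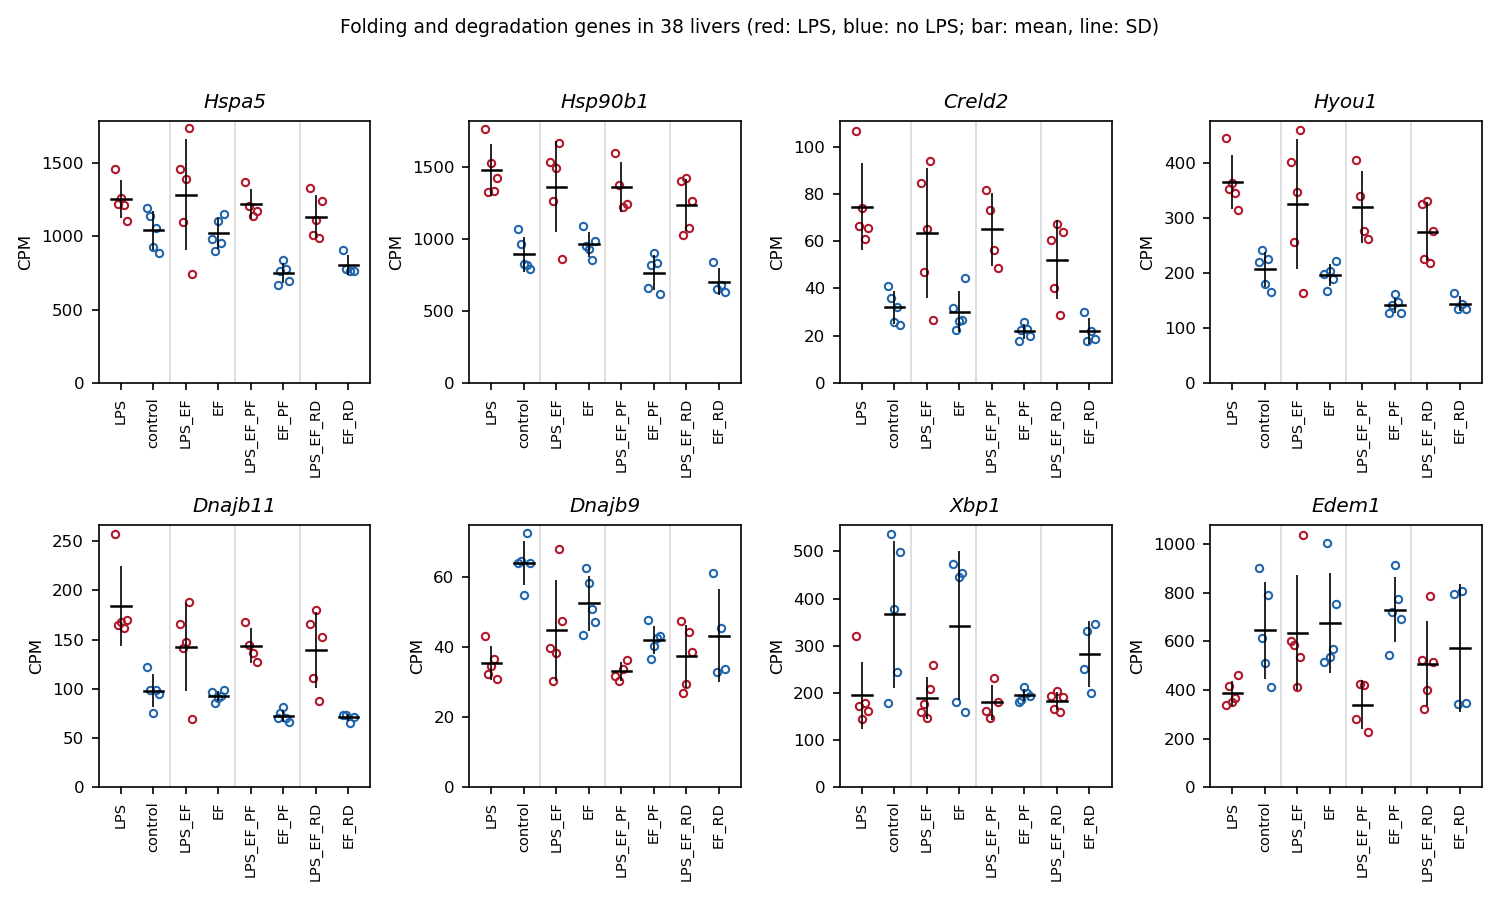
CPM of 8 folding and degradation genes in each of 38 livers (open circles), with each group after LPS (red) to the left of the same extract treatment without LPS (blue); bars are means and vertical lines SD. Hsp90b1, Creld2, Hyou1 and Dnajb11 are higher in the red groups, with LPS_EF 7 as the low point of LPS_EF, while Dnajb9 is lower in LPS than in control and Xbp1 and Edem1 spread widely among the blue groups.

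The remaining folding enzymes rose too. In LPS against control the disulfide isomerases rose by 0.60 ± 0.14 (Pdia4), 0.52 ± 0.14 (Pdia3), 0.48 ± 0.14 (Pdia6) and 0.45 ± 0.11 (P4hb) on the log2 scale. The lectin chaperones rose by 0.51 ± 0.14 (Calr) and 0.25 ± 0.09 (Canx), and Manf, an ER protein released under stress, by 0.50 ± 0.17. Calr, Pdia6 and P4hb were called higher in all 4 LPS comparisons, and Pdia3, Pdia4, Canx and Manf in all but LPS_EF against EF. Dnajc3, an Hspa5 co-chaperone, was called in LPS_EF_RD against EF_RD (0.47 ± 0.13), and its changes in LPS, LPS_EF and LPS_EF_PF were 0.27, 0.17 and 0.13 (adjusted p = 0.0838, 0.313 and 0.471). In all, 11 chaperones had every LPS liver above every control liver, as did 13 in LPS_EF_PF against EF_PF and 12 in LPS_EF_RD against EF_RD, but 0 in LPS_EF against EF. The same separation was seen in 12.5% of all tested genes in LPS against control, 19.5% in LPS_EF_PF against EF_PF, 8.1% in LPS_EF_RD against EF_RD and 4.99% in LPS_EF against EF.

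Dnajb9, a J-domain co-chaperone known as a target of spliced Xbp1 (rn6 chromosome 6, 64165913 to 64170122, minus strand), went the other way from the rest. It had 43.0, 32.2, 34.6, 36.5 and 30.7 CPM in LPS livers, against 63.8, 64.5, 54.7, 72.5 and 64.0 CPM in control livers (−0.85 ± 0.17 (SE), adjusted p = 0.000286). All LPS values were below all control values. The change was −0.23, −0.35 and −0.21 in LPS_EF, LPS_EF_PF and LPS_EF_RD against their groups without LPS, and none of these was called (adjusted p = 0.331, 0.136 and 0.411). EF livers had 43.5, 62.4, 58.3, 50.7 and 47.1 CPM and EF_PF livers 47.6, 36.5, 40.2, 42.5 and 43.1 CPM.

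Some chaperone calls rested on single libraries. In LPS against control the call of Canx was lost without any 1 of control 5, control 6 or LPS 1 (adjusted p up to 0.0802), and that of Manf without any 1 of control 6 or LPS 1 (adjusted p up to 0.0671). In LPS_EF against EF the call of Calr was lost without any 1 of EF 2, EF 3, EF 4, LPS_EF 3, LPS_EF 5 or LPS_EF 6 (adjusted p up to 0.106), and that of Sdf2l1 without any 1 of EF 2 or LPS_EF 6 (adjusted p up to 0.0559). In LPS_EF_PF against EF_PF those of Canx, Pdia6 and P4hb were lost in 8, 5 and 3 of 9 omissions (adjusted p up to 0.117, 0.109 and 0.0945), each without LPS_EF_PF 1 among others, and in LPS_EF_RD against EF_RD that of Canx was lost without any 1 of EF_RD 1 or LPS_EF_RD 4 (adjusted p up to 0.0677). LPS_EF 7 and LPS_EF_RD 6, the libraries lowest in neutrophil and monocyte markers among those after LPS, were also low for chaperones: without both, 12 chaperones were called higher in LPS_EF against EF in place of 8, and 14 in LPS_EF_RD against EF_RD as before. When LPS_EF and EF were fitted alone, 1 chaperone was called higher. Without LPS 3, control 5 and EF_RD 1, the libraries high in pancreas or muscle markers, 11 chaperones were called higher in LPS against control in place of 12. The share of all genes called in these refits is not given here, so whether the counts moved more for chaperones than for other genes is not known. The part of white blood cells in the chaperone levels was not tested.

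Degradation genes did not follow the chaperones. Of the 6 tested, 3 fell in LPS against control and none rose; 1 fell in LPS_EF against EF, 2 fell and 1 rose in LPS_EF_PF against EF_PF, and none was called in LPS_EF_RD against EF_RD. The genes that fell were 50%, 16.7%, 33.3% and 0% of the 6 in LPS, LPS_EF, LPS_EF_PF and LPS_EF_RD, beside 18.1%, 14.5%, 17.3% and 10.7% of all genes, so the count in LPS_EF was near the share of all genes, and 1 gene makes 16.7% of so short a list. Edem1, which picks out misfolded glycoproteins for degradation (rn6 chromosome 4, 140886644 to 140918654, plus strand), had 340.1, 415, 349.7, 368 and 463 CPM in LPS livers, against 901, 614, 511, 791 and 413 CPM in control livers (−0.74 ± 0.27 (SE), adjusted p = 0.0316). The groups overlapped, since control 7 was below LPS 2 and LPS 5. Edem1 was also lower with EF and PF, at 281, 426, 421 and 227 CPM in LPS_EF_PF livers, against 544, 722, 914, 776 and 694 CPM in EF_PF livers (−1.11 ± 0.29 (SE), adjusted p = 0.00358), with no overlap. Herpud1, a membrane component of the degradation complex that carries an ERSE-II (rn6 chromosome 19, 11046905 to 11057440, minus strand), had 232, 238, 149.5, 212 and 176 CPM in LPS livers, against 434, 296, 206, 374 and 263 CPM in control livers (−0.64 ± 0.24 (SE), adjusted p = 0.0312), with overlap. In LPS_EF_PF livers it fell by 0.90 on the log2 scale (adjusted p = 0.00601), and in LPS_EF_RD its change was 0.01 (adjusted p = 0.977). Derl2, of the channel through which chains leave the ER, fell in LPS (−0.26 ± 0.10 (SE), adjusted p = 0.0438) and in LPS_EF (−0.40 ± 0.10 (SE), adjusted p = 0.00364). Syvn1 (HRD1), the ubiquitin ligase of the complex, rose in LPS_EF_PF (0.34 ± 0.12 (SE), adjusted p = 0.0204), and its change in LPS was 0.05. Sel1l, the adaptor of that ligase, and Derl1 were called in none of the 4 comparisons, with log2 fold changes from −0.13 to 0.13.

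Several of these calls rested on single libraries. In LPS against control the call of Edem1 was lost without any 1 of control 3, control 6, LPS 1, LPS 3 or LPS 4 (adjusted p up to 0.0991), that of Herpud1 without any 1 of control 3, control 6, LPS 3 or LPS 5 (adjusted p up to 0.105), and that of Derl2 without any 1 of control 3, control 7, LPS 1, LPS 3 or LPS 4 (adjusted p up to 0.284). In LPS_EF_PF against EF_PF the call of Syvn1 was lost without LPS_EF_PF 1 (adjusted p = 0.0901).

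Of the 4 genes for the sensors and Xbp1, only the transcription factor Xbp1 (rn6 chromosome 14, 85753736 to 85758820, plus strand) was called lower after LPS. It had 320.1, 171, 144, 178 and 160.5 CPM in LPS livers, against 178, 536, 377, 244 and 498 CPM in control livers (−0.91 ± 0.27 (SE), adjusted p = 0.00941). The control values spread widely, and LPS 1 lay inside their range. In LPS_EF livers it had 159, 176, 146, 209 and 258 CPM, against 472, 181, 446, 454 and 159.5 CPM in EF livers (−0.85 ± 0.27 (SE), adjusted p = 0.0184), again with overlap, and this call was lost without any 1 of EF 1, EF 3, EF 4, LPS_EF 3 or LPS_EF 5 (adjusted p up to 0.0630). In LPS_EF_PF livers it had 161, 147, 231 and 180.1 CPM, against 180.3, 186, 213, 200.2 and 194 CPM in EF_PF livers (−0.11 ± 0.29 (SE), adjusted p = 0.787), which was not called. In LPS_EF_RD livers it had 193, 167, 204, 159.5 and 190.4 CPM, against 251.3, 332, 199 and 346 CPM in EF_RD livers (−0.62 ± 0.29 (SE), adjusted p = 0.112), which was not called either. EF_PF livers without LPS ran from 180.3 to 213 CPM, whereas EF and control livers ran from 159.5 to 536 CPM. Atf6, Ern1 and Eif2ak3 had log2 fold changes of 0.10, −0.15 and −0.17 in LPS against control and were not called. Eif2ak3 was called higher in LPS_EF_RD, with 20.3, 19.97, 18.5, 21.6 and 18.6 CPM against 19.9, 14.2, 15.4 and 13.8 CPM in EF_RD livers (0.32 ± 0.11 (SE), adjusted p = 0.0343); the groups overlapped through EF_RD 1, and the call was lost without any 1 of EF_RD 2, EF_RD 3, EF_RD 4, LPS_EF_RD 1, LPS_EF_RD 2 or LPS_EF_RD 6 (adjusted p up to 0.139).

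Most genes of the Atf4-Ddit3 arm had lower means after LPS, with Asns as the exception in LPS livers, but few changes were called. In LPS against control 1 of its 8 genes rose and 4 fell, with a median log2 fold change of −0.73. The counts were 1 higher and 2 lower in LPS_EF against EF (median −0.24), 1 higher and 2 lower in LPS_EF_PF against EF_PF (median −0.39), and 1 higher and 0 lower in LPS_EF_RD against EF_RD (median −0.16). Of the 8 log2 fold changes, 7, 5, 6 and 6 were negative in LPS, LPS_EF, LPS_EF_PF and LPS_EF_RD. The genes called lower were 50%, 25%, 25% and 0% of the 8, beside 18.1%, 14.5%, 17.3% and 10.7% of all genes, and the 1 called higher each time (12.5%) was no more than the share of all genes (18.6%, 14.6%, 19.2% and 12.8%). Asns was the gene called higher except in LPS_EF, where it was Ddit3. Trib3, Chac1, Atf3, Atf4 and Ppp1r15a had a negative fold change in all 4 comparisons. For Ppp1r15a and Atf3 it came as near to no change as −0.0012 and −0.077, and neither gene was called in any of them.

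Asns, which makes asparagine and is known as an Atf4 target (rn6 chromosome 4, 33742876 to 33761106, minus strand), had 10.3, 10.8, 12.8, 9.27 and 14.7 CPM in LPS livers, against 2.79, 2.99, 6.09, 2.72 and 4.13 CPM in control livers (1.63 ± 0.29 (SE), adjusted p = 7.49e-05). All LPS livers were above all control livers. In LPS_EF_PF livers it had 16.0, 12.2, 11.5 and 12.2 CPM, against 2.77, 3.04, 3.07, 2.88 and 4.14 CPM in EF_PF livers (2.03 ± 0.31 (SE), adjusted p = 9.62e-06), with no overlap. In LPS_EF_RD livers it had 6.55, 12.6, 8.29, 5.46 and 8.86 CPM, against 8.26, 4.14, 2.51 and 3.09 CPM in EF_RD livers (0.90 ± 0.31 (SE), adjusted p = 0.0325), with overlap through EF_RD 1, and the call was lost without any 1 of EF_RD 2, EF_RD 3, EF_RD 4, LPS_EF_RD 2, LPS_EF_RD 4 or LPS_EF_RD 8 (adjusted p up to 0.135). In LPS_EF livers it had 9.68, 11.1, 13.1, 10.2 and 4.79 CPM, against 8.87, 3.79, 4.91, 4.85 and 8.84 CPM in EF livers, and the change of 0.64 ± 0.28 was not called (adjusted p = 0.0839). LPS_EF 7 was inside the EF range. The difference between EF and control livers was 0.74 ± 0.29 and was not called (adjusted p = 0.271).

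Trib3, a pseudokinase known to be induced by Atf4 and Ddit3 (rn6 chromosome 3, 147814056 to 147819650, minus strand), had 1.31, 1.39, 1.52, 2.61 and 1.77 CPM in LPS livers, against 4.94, 9.12, 5.81, 6.26 and 5.43 CPM in control livers (−1.88 ± 0.37 (SE), adjusted p = 0.000204). Every LPS liver was below every control liver. LPS_EF livers had 1.79, 2.80, 1.38, 2.90 and 4.49 CPM of Trib3, against 2.68, 3.70, 9.77, 6.39 and 4.95 CPM in EF livers (−1.04 ± 0.36 (SE), adjusted p = 0.0268), with overlap, and the call was lost without any 1 of EF 3, EF 4, LPS_EF 3 or LPS_EF 5 (adjusted p up to 0.136). LPS_EF_PF livers had 1.17, 2.14, 3.496 and 1.35 CPM of Trib3, against 4.13, 2.73, 7.74, 4.68 and 9.84 CPM in EF_PF livers (−1.49 ± 0.39 (SE), adjusted p = 0.00298), where LPS_EF_PF 4 lay inside the EF_PF range. In LPS_EF_RD against EF_RD its change of −0.82 was not called (adjusted p = 0.103). Asns and Trib3, both known as targets of Atf4, moved in opposite directions in LPS and LPS_EF_PF livers.

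Atf4 (rn6 chromosome 7, 121480723 to 121482781, plus strand) had 96.3, 77.3, 99.0, 86.5 and 93.8 CPM in LPS livers, against 109, 117, 121, 86.2 and 159.6 CPM in control livers (−0.39 ± 0.15 (SE), adjusted p = 0.0435), with overlap through control 6. Its change was −0.43 in LPS_EF (adjusted p = 0.0319, called), −0.36 in LPS_EF_PF and −0.38 in LPS_EF_RD (adjusted p = 0.0822 and 0.0818, not called). The call in LPS against control was lost without any 1 of control 4, control 5, control 7, LPS 1, LPS 2, LPS 4 or LPS 5 (adjusted p up to 0.197), and that in LPS_EF against EF without any 1 of EF 3, EF 5, LPS_EF 3, LPS_EF 4 or LPS_EF 5 (adjusted p up to 0.158). Ddit3 (rn6 chromosome 7, 70578564 to 70585074, plus strand), the transcription factor tied to cell death under lasting ER stress, had 5.23, 7.21, 7.22, 5.42 and 6.08 CPM in LPS livers, against 7.78, 7.32, 5.81, 6.76 and 5.35 CPM in control livers. The groups lay over each other, with a change of −0.08 ± 0.17 on the log2 scale (adjusted p = 0.740). In LPS_EF livers it had 9.88, 7.93, 9.09, 9.59 and 5.65 CPM, against 6.46, 4.73, 5.42, 4.50 and 8.67 CPM in EF livers (0.50 ± 0.17 (SE), adjusted p = 0.0285); 3 of the 5 LPS_EF livers were above every EF liver, and the call was lost without any 1 of EF 2, EF 3, EF 4, LPS_EF 3, LPS_EF 5 or LPS_EF 6 (adjusted p up to 0.0869). In LPS_EF_PF and LPS_EF_RD its changes were 0.10 and 0.26 (adjusted p = 0.704 and 0.318).

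Chac1, an enzyme that breaks down glutathione (rn6 chromosome 3, 111160205 to 111163425, plus strand), had 0.475, 0.305, 0.740, 0.312 and 0.507 CPM in LPS livers, against 0.652, 3.53, 0.744, 0.330 and 2.43 CPM in control livers (−1.72 ± 0.50 (SE), adjusted p = 0.00690). These are 8 to 20 read pairs per LPS library and 8 to 92 per control library, the groups overlapped, and the call was lost without control 4 (adjusted p = 0.0681). Sesn2, a stress-induced inhibitor of growth signalling (rn6 chromosome 5, 150684891 to 150703846, minus strand), had 14.2, 17.9, 17.9, 17.3 and 21.8 CPM in LPS livers, against 30.3, 40.1, 39.0, 49.4 and 26.2 CPM in control livers (−1.05 ± 0.25 (SE), adjusted p = 0.00124), with no overlap. It also fell in LPS_EF_PF against EF_PF (−0.68 ± 0.26 (SE), adjusted p = 0.0417), again with no overlap, a call lost without any 1 of EF_PF 5, EF_PF 6, LPS_EF_PF 1, LPS_EF_PF 3 or LPS_EF_PF 6 (adjusted p up to 0.108). Its change in LPS_EF against EF was 0.19 (adjusted p = 0.602), beside EF livers that were lower than control livers. Ppp1r15a (GADD34), the subunit that reverses eIF2alpha phosphorylation, and Atf3, a transcription factor of the same arm, were called in none of the 4 comparisons; in LPS against control they had log2 fold changes of −0.41 and −1.17 (adjusted p = 0.0778 and 0.0943).

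**Figure D3:**
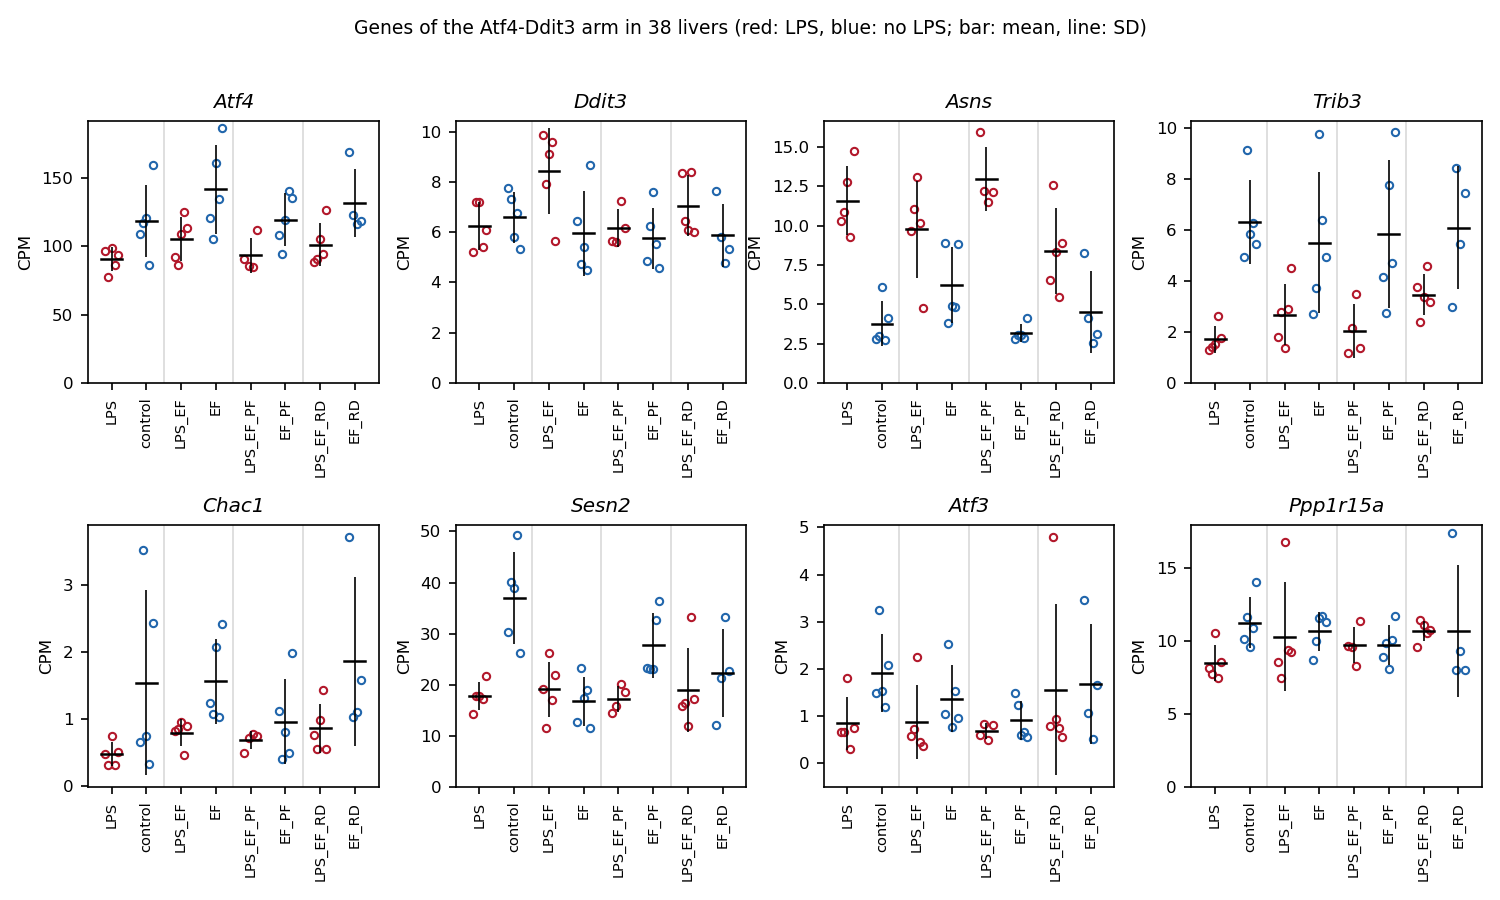
CPM of the 8 genes of the Atf4-Ddit3 arm in each of 38 livers (open circles), with each group after LPS (red) to the left of the same extract treatment without LPS (blue); bars are means and vertical lines SD. Asns has a higher mean in each red group than in the blue one beside it, Trib3 is lower in LPS than in control, and Ddit3 and Ppp1r15a lie at like levels in most groups.

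Per liver, the contrast between the gene groups was clearest between LPS and control livers. It was seen in the mean log2 level over their genes, each taken relative to its mean over 38 livers. For the chaperones it ran from 0.27 to 0.78 in LPS livers and from −0.32 to 0.12 in control livers. For the Atf4 arm it ran from −0.49 to 0.03 in LPS livers and from −0.04 to 0.65 in control livers, with overlap. The arm levels overlapped in the other comparisons too. They were −0.19 to 0.31 in LPS_EF against −0.02 to 0.35 in EF, and −0.34 to −0.10 in LPS_EF_PF against −0.29 to 0.25 in EF_PF. In LPS_EF_RD they were −0.14 to 0.19, against −0.13 to 0.59 in EF_RD. The chaperone levels of LPS_EF 7 (−0.40), LPS_EF_RD 6 (−0.16), LPS_EF_RD 2 (−0.11) and LPS_EF_PF 6 (0.09) were inside the range of livers without LPS.

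**Figure D4:**
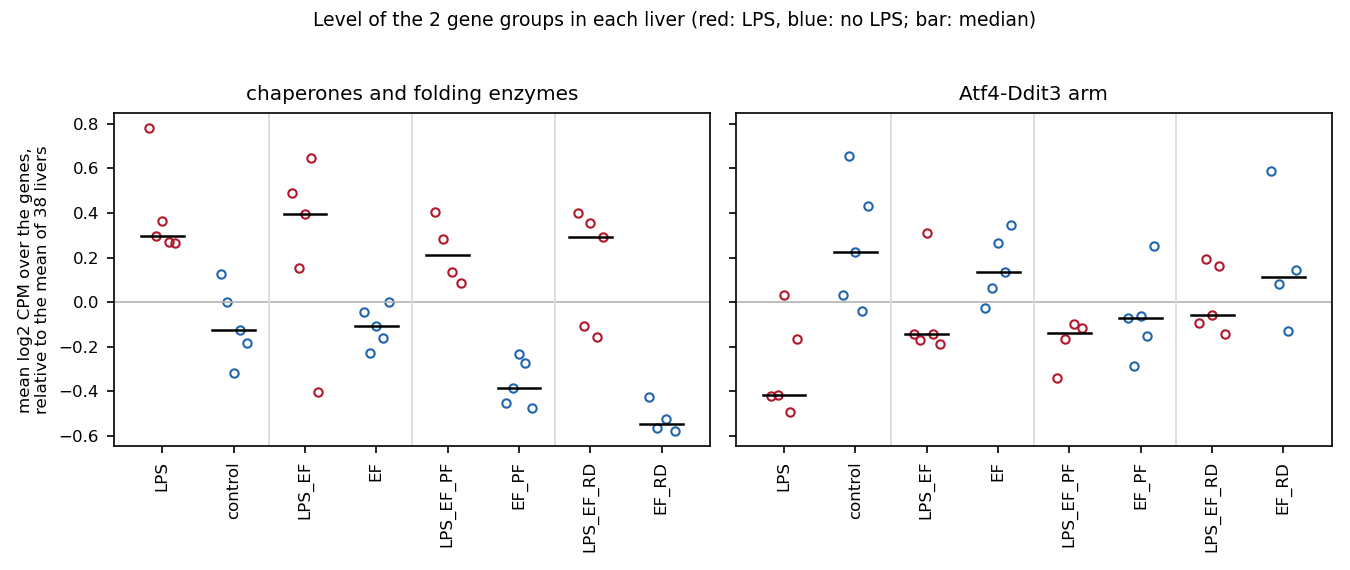
Mean log2 CPM over the 15 chaperones (left) and the 8 genes of the Atf4-Ddit3 arm (right) in each liver, relative to the mean of 38 livers; groups after LPS are red, those without blue, and bars are medians. The chaperone medians of all red groups are above those of all blue groups, and LPS_EF 7 at −0.40 is the lowest red point.

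Related genes of the pathway from wider lists were measured the same way, and their counts stand beside 18.6%, 14.6%, 19.2% and 12.8% of all genes called higher and 18.1%, 14.5%, 17.3% and 10.7% called lower in LPS, LPS_EF, LPS_EF_PF and LPS_EF_RD against their groups without LPS. Of 31 tested genes for other folding, oxidation and glycoprotein control steps, 7, 7, 9 and 12 rose and 1, 0, 0 and 0 fell in these 4 comparisons. The higher share of 22.6% was near that of all genes in LPS, and it was 22.6%, 29% and 38.7% in the others. Fkbp11, a prolyl isomerase of the secretory pathway, rose by 1.09 ± 0.22, 1.13 ± 0.22, 1.13 ± 0.23 and 1.14 ± 0.24, and Calu, a calcium-binding protein of the ER, by 0.85 ± 0.13, 0.53 ± 0.12, 0.85 ± 0.13 and 0.72 ± 0.13. Uggt1, which senses the folding of glycoproteins, and Ppib, a cyclophilin of the ER, were called higher in all 4. Of 28 genes of the translocon, signal peptidase and oligosaccharyltransferase, 10, 4, 12 and 18 rose and 2, 2, 1 and 0 fell. The share that rose was 35.7%, 14.3%, 42.9% and 64.3%, and the 14.3% in LPS_EF was at the level of all genes. Sec11c, a catalytic subunit of signal peptidase, rose by 1.19 ± 0.19 in LPS livers, and Ssr2 and Ssr1, subunits of the translocon-associated complex, by 0.69 ± 0.17 and 0.57 ± 0.15, while Srp68 of the signal recognition particle fell (−0.48 ± 0.10). Of 21 other degradation genes, 2, 2, 2 and 3 rose and 10, 8, 8 and 6 fell. The share that fell was 47.6%, 38.1%, 38.1% and 28.6%, above that of all genes, while the share that rose was 9.52%, 9.52%, 9.52% and 14.3%, near or below it. Ubxn4 (−0.56 ± 0.08) and Nploc4 (−0.46 ± 0.09), which work with the extracting ATPase Vcp, fell in LPS livers and in each of the other 3 comparisons, as did Sel1l3 (−0.50 ± 0.12) and March6, an ER ubiquitin ligase (−0.47 ± 0.15), in all but LPS_EF.

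Of 36 other tested genes known as Atf4 or Ddit3 targets, 4, 3, 6 and 4 rose and 14, 12, 16 and 13 fell. The share that fell was 38.9%, 33.3%, 44.4% and 36.1%, and the share that rose, 11.1%, 8.33%, 16.7% and 11.1%, was below that of all genes each time. Phgdh, the first enzyme of serine synthesis, had a mean of 8.78 CPM in LPS livers and 3.19 CPM in control livers (1.46 ± 0.42 (SE), adjusted p = 0.00678). Mthfd2, a mitochondrial folate enzyme, rose by 1.25 ± 0.40 at a mean of 2.21 CPM in LPS livers and 0.930 CPM in control livers. Cth, which makes cysteine, fell (−1.33 ± 0.37 (SE), adjusted p = 0.00557), as did the amino acid carrier Slc38a2 (−1.27 ± 0.30 (SE), adjusted p = 0.00145). Phgdh, Mthfd2, Cth and Slc38a2 were not called in LPS_EF against EF. Mthfd2 and Cth were called in the same direction in LPS_EF_PF and LPS_EF_RD, Slc38a2 in LPS_EF_PF only, and Phgdh in neither. Of 11 genes for the other eIF2alpha kinases, the phosphatase and eIF2B, 2, 0, 1 and 0 rose and 7, 7, 7 and 5 fell, which for those that fell is 63.6%, 63.6%, 63.6% and 45.5%. Among them Eif2s1, which encodes eIF2alpha itself, fell by 0.65, 0.44, 0.27 and 0.35 on the log2 scale, and Eif2b3 by 0.59, 0.53, 0.49 and 0.50. Eif2ak2, the kinase that binds double-stranded RNA, fell in LPS (−0.71 ± 0.17) and LPS_EF_RD (−0.82 ± 0.18), and Eif2b1 in all but LPS_EF_RD (−0.52 ± 0.11 in LPS). Of 13 other regulators, 2, 1, 1 and 1 rose and 4, 3, 4 and 2 fell, shares (15.4% and then 7.69% each, and 30.8%, 23.1%, 30.8% and 15.4%) within 2 genes of those of all genes; in LPS livers Creb3l3, a liver factor processed like Atf6 (−0.59 ± 0.13), and Tmbim6, which dampens Ern1 (−0.52 ± 0.09), fell, and Atf6b (0.35 ± 0.09) and Wfs1 (0.36 ± 0.14) rose.

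Without LPS, the extracts moved few of the genes past the threshold. In EF against control 0 members rose and 1 fell (all genes: 0.656% higher and 0.264% lower). This was Sesn2, with 12.7, 23.3, 17.4, 18.97 and 11.5 CPM in EF livers, against 30.3, 40.1, 39.0, 49.4 and 26.2 CPM in control livers (−1.14 ± 0.25 (SE), adjusted p = 0.0163). Every EF liver was below every control liver, and the call was lost without any 1 of control 6, EF 1 or EF 5 (adjusted p up to 0.0616). In EF_PF against control no member was called by edgeR (all genes: 0.446% higher and 0.176% lower), and DESeq2 called 3. An unadjusted p under 0.05 was found for 1855 of all 14786 genes and for 9 of the 33 members. Xbp1 was the largest of these 9 (−0.91 ± 0.27, adjusted p = 0.114), followed by Dnajb9 (−0.61 ± 0.17, adjusted p = 0.0911).

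In EF_RD livers all 15 chaperones had lower means than in control livers, with log2 fold changes from −0.57 to −0.27 and a median of −0.46. Chaperones moved together between livers without LPS (median r 0.501 over their pairs), so genes of the same sign are not independent results. Of the 33 members 0 rose and 2 fell (all genes: 0.859% higher and 0.663% lower). An unadjusted p under 0.05 was found for 12 of the 15 chaperones and for 2416 of all 14786 genes. Pdia6, which forms and shuffles disulfide bonds (rn6 chromosome 6, 42568269 to 42585654, plus strand), had 244, 270.5, 258 and 246 CPM in EF_RD livers, against 427, 411, 328, 352 and 369 CPM in control livers (−0.57 ± 0.15 (SE), adjusted p = 0.0392). Eif2ak3 had 19.9, 14.2, 15.4 and 13.8 CPM in EF_RD livers, against 20.9, 22.1, 19.7, 22.3 and 28.2 CPM in control livers (−0.52 ± 0.11 (SE), adjusted p = 0.0135). The Pdia6 groups did not overlap, and those of Eif2ak3 did through EF_RD 1. Pdia6 was no longer called without any 1 of control 3, control 4, control 7, EF_RD 1, EF_RD 2, EF_RD 3 or EF_RD 4 (adjusted p up to 0.140), and Eif2ak3 not without any 1 of control 7 or EF_RD 4 (adjusted p up to 0.0535); with the 2 groups fitted alone no member was called. Without EF_RD 2 or EF_RD 4 all 15 chaperone fold changes were negative too (medians −0.45 and −0.46). EF_RD 1 is the library high in muscle markers, and without it and LPS 3, 1 member was called. Hspa5, at 904, 777, 763 and 766 CPM in EF_RD livers and 1192, 1140, 928, 1055 and 889 CPM in control livers, had −0.37 ± 0.15 (adjusted p = 0.188).

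Against EF, the same EF_RD livers gave chaperone fold changes of one sign, from −0.55 to −0.26. Their median was −0.44, and it was −0.41 without EF_RD 2 and −0.38 without EF_RD 4. Derl2 was the member called, with 71.0, 71.0, 70.3 and 68.1 CPM in EF_RD livers, against 109, 96.1, 93.3, 99.8 and 85.2 CPM in EF livers (−0.46 ± 0.11 (SE), adjusted p = 0.0385), where 0.724% of all genes were called in either direction. This call was lost without any 1 of EF 2, EF 3, EF 4, EF_RD 1, EF_RD 3 or EF_RD 4 (adjusted p up to 0.124). In EF_PF against EF no member was called by edgeR (all genes: 0.162%). An unadjusted p under 0.05 was found for 1815 of all 14786 genes and for 12 of the 33 members. The largest changes among these members were those of Asns (−0.98 ± 0.29), Xbp1 (−0.82 ± 0.27) and Sesn2 (0.72 ± 0.25). The comparisons of EF_RD with control and with EF share the EF_RD libraries, and those of EF_PF share the EF_PF libraries. EF_RD and EF_PF also share their EF and control libraries, so these comparisons are not independent of each other.

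Among livers after LPS, no member was called in any comparison of extract treatments. Against LPS, edgeR called 0 members in LPS_EF (all genes: 0.108%), 0 in LPS_EF_PF (0.0406%) and 0 in LPS_EF_RD (0.0135%). DESeq2 and limma also called 0 in each. At an unadjusted p under 0.05 there were 1452, 891 and 1130 of 14786 genes, and 3, 1 and 6 of the 33 members. The largest log2 differences among these were 0.9998 ± 0.37 for Trib3 in LPS_EF_RD and 0.71 ± 0.27 for Edem1 in LPS_EF (adjusted p = 0.474 and 0.340). Against LPS_EF, 0 members were called in LPS_EF_PF (all genes: 0.00676%) and 0 in LPS_EF_RD (0%). Here 1205 and 412 of 14786 genes, and 4 and 0 members, had an unadjusted p under 0.05. The chaperone differences leaned one way. They were negative for 13 of 15 chaperones in LPS_EF, 15 in LPS_EF_PF and 14 in LPS_EF_RD against LPS, with medians of −0.12, −0.17 and −0.21 on the log2 scale, and these comparisons share the LPS libraries. In LPS_EF_RD against LPS_EF they were negative for 15 of 15 (median −0.10). In the mean log2 level of the chaperones LPS 1 stood at 0.78 and the rest of LPS at 0.27 to 0.36. The lowest livers of their groups were LPS_EF 7 (−0.40) and LPS_EF_RD 6 (−0.16). Whether the lean rested on these livers was not tested. Chaperones moved together between livers after LPS (median r 0.884 over their pairs), so genes of the same sign are not independent results. In the Atf4 arm the differences were positive for 7, 5 and 7 of 8 genes in LPS_EF, LPS_EF_PF and LPS_EF_RD against LPS. The interactions ask whether the change after LPS differed with an extract treatment. They called 0 members for EF (all genes: 0.108%), 0 for EF_PF (0.0812%) and 0 for EF_RD (0.128%). An unadjusted p under 0.05 was found for 4, 1 and 4 members and for 1016, 719 and 1109 of 14786 genes. DESeq2 and limma also called 0 members in each interaction and in both comparisons against LPS_EF. Sesn2 had the largest interaction, 1.24 ± 0.35 for EF (adjusted p = 0.358), and Hspa5 had 0.44 ± 0.20 for EF_PF (adjusted p = 0.988). A p above the threshold does not show that the groups were alike.

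Within groups, livers that were high for one chaperone were mostly high for the others. Each liver's log2 CPM was taken relative to its group mean, and 12 relations between named pairs were tested over 19 livers each by permutation within groups, with Benjamini-Hochberg adjustment over the 12. These livers share the scaling of their libraries and their mix of cells. Hspa5 and Hsp90b1 moved together after LPS (Pearson r = 0.919, Spearman rho = 0.858, permutation p = 3e-05 and 8e-05, adjusted 0.00024 and 0.00048) and without LPS (r = 0.736, rho = 0.754, permutation p = 0.00118 and 0.00111, adjusted 0.00369 and 0.00444). Without the 2 livers farthest from the median of Hspa5, r was 0.827 after LPS and 0.716 without LPS, where it was 0.734 and 0.732 without EF_RD 2 and without EF_RD 4.

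Hspa5 and Ddit3 also moved together in livers without LPS (r = 0.844, rho = 0.877, permutation p = 4e-05 for both, adjusted 0.00024 and 0.00048), and r was 0.816 without EF 5 and control 3, 0.847 without EF_RD 2 and 0.841 without EF_RD 4. After LPS the relation did not pass (r = 0.493, rho = 0.137, permutation p = 0.121 and 0.62, adjusted 0.242 and 0.801), and r was −0.03 without LPS_EF 6 and LPS_EF 7, so that it rested on those livers. Whether the relation differed between livers after LPS and without was not tested. Asns and Trib3 ran against each other after LPS (r = −0.69, rho = −0.63, permutation p = 0.00123 and 0.00527, adjusted 0.00369 and 0.0158), but without LPS_EF 7 and LPS_EF_RD 2 r was −0.51 (permutation p = 0.0344, adjusted 0.103). Without LPS their r was −0.27 (rho = −0.16, permutation p = 0.311 and 0.55). The pairs Hspa5 with Asns, Atf3 with Ddit3 and Xbp1 with Dnajb9 did not pass in either set. Over all pairs, given here as a description, the median r within the chaperones was 0.884 after LPS and 0.501 without (positive in 105 and 87 of 105 pairs), within the Atf4 arm 0.128 and 0.129, and between the chaperones and that arm 0.02 and −0.04.

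**Figure D5:**
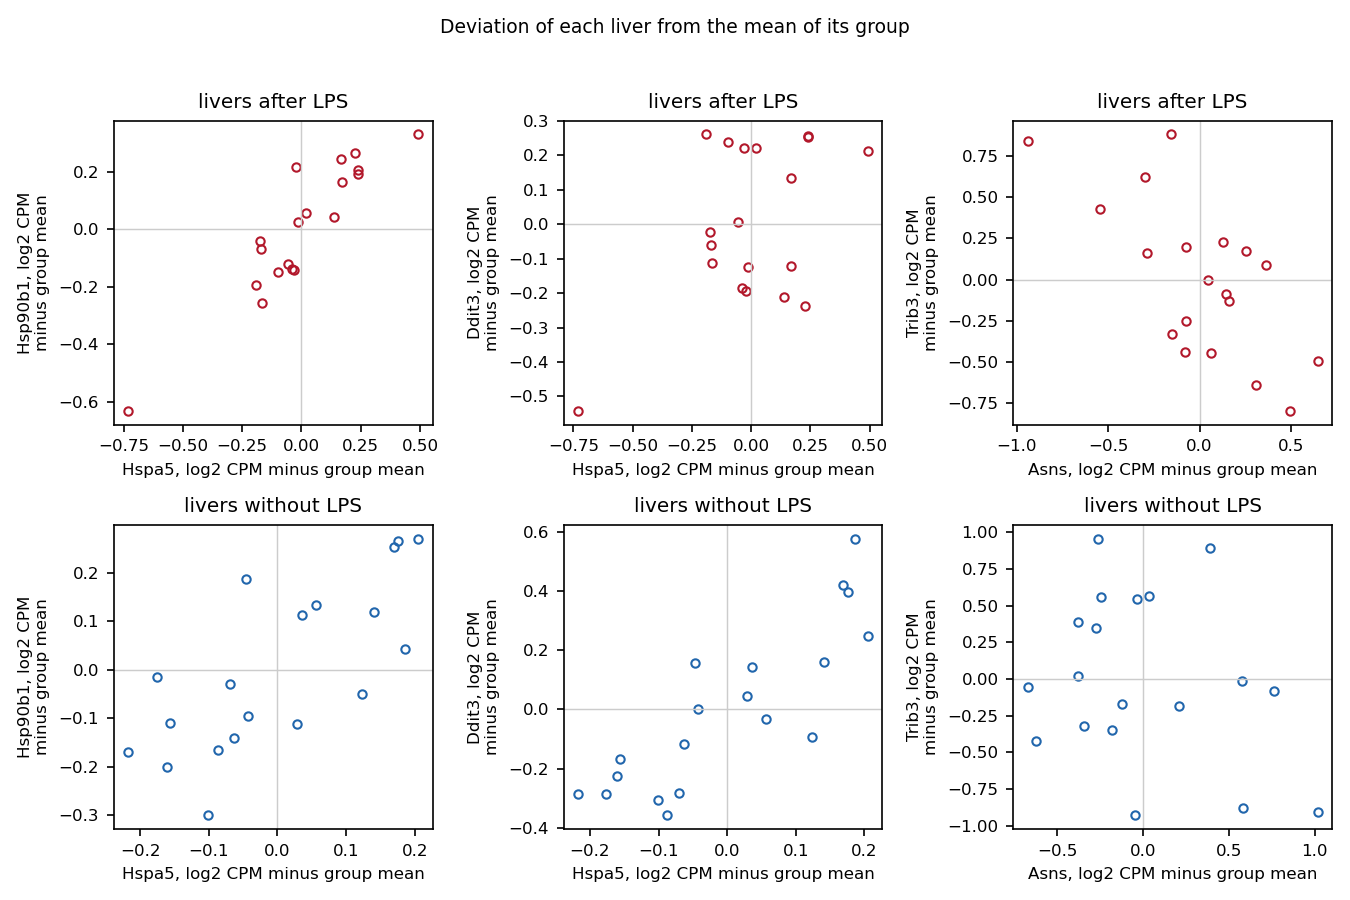
Deviation of each of 19 livers after LPS (top, red) and 19 without (bottom, blue) from its group mean in log2 CPM, for Hspa5 with Hsp90b1, Hspa5 with Ddit3 and Asns with Trib3. The Hspa5 and Hsp90b1 points follow a line in both rows (r = 0.919 and 0.736), and those of Hspa5 and Ddit3 in the bottom row (r = 0.844).

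Set beside the promoters, chaperones with an ERSE or ERSE-II in their window were called higher in 6, 5, 7 and 8 of 8 cases in the LPS, LPS_EF, LPS_EF_PF and LPS_EF_RD comparisons, and those with a window that holds neither in 3, 2, 2 and 3 of 4 cases. The median log2 fold changes were 0.62, 0.45, 0.77 and 0.81 with a site and 0.52, 0.35, 0.37 and 0.69 without. Of all tested genes 18.6%, 14.6%, 19.2% and 12.8% were called higher in these comparisons. Both sets hold few genes, and chaperones without a window were left out. A difference between the sets was not tested. Xbp1 and Herpud1, which also carry such a site, were not called higher in any of the 4 comparisons. Of the Atf4 arm the genes with the composite site in the window, Trib3 and Chac1, were those with the largest falls in LPS against control. Trib3 was called lower in 3 of the 4 comparisons and Chac1 in 1. The Chac1 call rested on few read pairs and was lost without control 4 (edgeR adjusted p = 0.0681). A link between this site and the change was not tested.

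The scaling of the libraries sets the zero of every fold change. With the total count in place of the trimmed mean, the median gene moved from 0.00 to 0.13 in LPS against control and from −0.02 to 0.14 in LPS_EF_PF against EF_PF, and the share of calls that were higher moved to 72.0%, 67.7%, 78.5% and 64.7% in the 4 LPS comparisons, against 50.6%, 50.2%, 52.6% and 54.4% with the trimmed mean. The members called higher and lower were then 15 and 5, 12 and 3, 16 and 3, and 16 and 0. In EF_RD against control the share of higher calls was 83.6% against 56.4%, and in EF_RD against EF 92.2% against 67.3%; the smaller sets of calls in LPS_EF against LPS and EF_PF against EF moved from 68.8% to 46.7% and from 41.7% to 75.0%, and that in LPS_EF_PF against LPS from 66.7% to 80%. No called member changed its direction under this scaling.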

How the data were processed

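RNA of 38 rat livers in 8 groups was sequenced; the groups come from the labels. The authors counted read pairs per gene name with featureCounts 2.0.6 on an annotation of the build rn6, unstranded and with no multimapping option set, per the file headers. STAR, RSEM and mRatBN7.2 appear in the submitters' processing notes, so positions are given as the count table has them. The deposited TPM values are length-scaled counts and were used only for levels between genes. Reads of overlapping genes on opposite strands cannot be told apart.

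Tests on the deposited counts used edgeR 4.0.16 (R 4.3.3), with 14786 genes kept by filterByExpr (minimum count 10, minimum total 15), TMM scaling, 1 mean per group over 38 libraries, 17 comparisons, two-sided quasi-likelihood tests, Benjamini-Hochberg adjustment over all tested genes and a threshold of 0.05. CPM are TMM-scaled. The totals per library, 19716622 to 35835012, limit the precision of low genes, and read pairs without molecular identifiers are not independent molecules. The fits were tested on simulated data with 200 changed genes. Alternatives used DESeq2 1.42.0, limma 3.58.1, other scaling, filters, a replicate block and left-out libraries. Correlations and promoter searches used Python 3.11.15 and scipy 1.17.1.

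The members and lists were chosen with earlier results of these data known. All 34 members are accounted for; Hspa5, Hsp90b1, Xbp1, Atf4, Ddit3 and Asns are described throughout, then in each role the 4 called genes with the largest change in LPS against control, members called with an extract treatment, and up to 4 genes per wider list by the same measure. The design text speaks of biological replicates; p-values measure the spread between these livers.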

Additional observations from a re-analysis of the deposited data

Results flagged for a closer look

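In 23 of 264 sets of 4 or 5 livers of 1 group, the highest or lowest liver stood apart from the rest by Dixon's criterion at its 95% critical value, which chance alone exceeds in about 1 in 20 sets. LPS 1 stood high within LPS for 6 genes, with 1305 CPM for Pdia3, 703.9 CPM for Pdia6, 2361 CPM for P4hb, 257.1 CPM for Dnajb11, 106.6 CPM for Creld2 and 320.1 CPM for Xbp1. EF_RD 1, the library high in muscle markers, stood high within EF_RD for 4, with 904.4 CPM for Hspa5, 98.25 CPM for Manf, 169 CPM for Atf4 and 17.43 CPM for Ppp1r15a. LPS_EF 7 was low for Pdia3 at 478 CPM. In LPS_EF_PF, replicate 1 was high for Syvn1 (78.3 CPM) and Asns (15.97 CPM), replicate 6 high for Eif2ak3 (20.51 CPM) and replicate 4 low for Ern1 (32.52 CPM). LPS_EF 5 was high for Atf3 (2.253 CPM) and Ppp1r15a (16.84 CPM), and LPS_EF 6 low for Chac1 (0.4514 CPM). In LPS_EF_RD, replicate 1 was high for Derl1 (122.8 CPM), replicate 2 for Atf3 (4.803 CPM) and replicate 6 for Sesn2 (33.21 CPM). In EF_PF, replicate 3 was high for Sel1l (215.1 CPM) and replicate 6 for Asns (4.141 CPM).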

How the results depend on the processing

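Of the recomputed fold changes of called members under settings other than leaving out 1 library, 555 kept direction and call, 68 kept direction and lost the call, and 0 turned round; with 1 library left out, 584 kept the call, 109 lost it and 0 turned round. DESeq2 and size-factor scaling kept all 73 calls each. With only the groups compared, members called were 2 in LPS_EF against EF (13 with all libraries), 0 in EF against control, 2 in EF_PF against control, 0 in EF_RD against control and 0 in EF_RD against EF, chaperones called higher in LPS_EF against EF were 1, and Atf4-Ddit3 arm genes called lower there 0. Over 88 pairs of livers with the same replicate number the median correlation of deviations was 0.018, and 24 exceeded 0.1. Over 543 other pairs the median was 0.0011, and 105 exceeded 0.1. These values do not settle whether replicate numbers pair livers, and the main fit treats them as unpaired. With the replicate number as a block, members called were 14 in LPS against control (22 without it), 3 in EF_PF against control, 8 in EF_RD against control and 0 in EF_RD against EF; chaperones called higher in LPS against control were 7, and arm genes called lower in LPS_EF_RD against EF_RD 1. Limma called 1 member in EF_RD against control and 0 in EF_RD against EF; DESeq2 called 3 in EF_PF against control and 2 in EF_RD against EF. Without LPS 3 and EF_RD 1, and also without control 5 as well (chosen after seeing the data), members called were 1 in EF_RD against control and 0 in EF_RD against EF, and arm genes called lower in LPS_EF_RD against EF_RD 1; the last count was also 1 without LPS_EF 7 and LPS_EF_RD 6 (chosen after seeing the data). Total-count scaling, also chosen then, gave 1 member in EF_RD against control and 0 in EF_RD against EF, and 1 arm gene called lower in LPS_EF against EF and in LPS_EF_PF against EF_PF, where the fit with no filter also gave 1. Leaving out 1 library at a time gave 17 to 21 members called in LPS against control, 8 to 19 in LPS_EF against EF, 13 to 18 in LPS_EF_PF against EF_PF, 14 to 16 in LPS_EF_RD against EF_RD, 0 to 1 in EF and in EF_PF against control, 0 to 3 in EF_RD against control and 0 to 1 in EF_RD against EF; chaperones called higher were 10 to 12, 6 to 12, 9 to 12 and 13 to 14 in the 4 LPS comparisons, and arm genes called lower 2 to 6, 0 to 2, 1 to 3 and 0 to 1. The share of all genes called under each of these settings is not given here, so these counts are not particular to the members. The cause of these changes was not tested, beyond fewer libraries in the fit. Low levels limit Chac1 and Atf3, which had as few as 8 read pairs in a library.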

Other observations

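Among the livers without LPS, the levels of Xbp1 and Edem1 spread widely in a way that was noticed after the values were seen and was not tested. Over replicates 1 to 4 of EF_RD, Xbp1 had 251.3, 332, 199 and 346 CPM and Edem1 795, 344, 806 and 348 CPM. Over replicates 1 to 5 of EF, Xbp1 had 472, 181, 446, 454 and 159.5 CPM and Edem1 513, 1005, 536, 570.4 and 755 CPM. Over replicates 3 to 7 of control, Xbp1 had 178, 536, 377, 244 and 498 CPM and Edem1 901, 614, 511, 791 and 413 CPM. In each of these groups the 2 livers lowest in Xbp1 were the 2 highest in Edem1. In EF_PF livers Xbp1 had 180.3, 186, 213, 200.2 and 194 CPM, a narrow range, and Edem1 544, 722, 914, 776 and 694 CPM.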
